A study of Mus musculus with 2 samples.

Results

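Epidermal T cells of the newborn Chrm3 KO mouse were defined here as barcodes with 900 to 7700 detected genes and under 10% mitochondrial UMIs (unique molecular identifiers, each counted as 1 transcript) that held at least 3 UMIs of Cd3g, Cd3d and Cd3e together and at most 20 UMIs of Krt14 and Krt5 together. In all, 79 of the 19488 kept cells met this rule. scRNA-seq libraries came from the epidermis of 2 male C57BL/6J mice at postnatal day 0, 1 library per mouse, and both mice carried the Chrm3 KO, a loss of the M3 muscarinic acetylcholine receptor in every tissue. The epidermis had been lifted off the dermis after an overnight incubation, filtered and freed of dead cells. No WT animals were analysed here, so no value below is an effect of the genotype.

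T cells reside in the epidermis from before birth, where in mice they are mainly the dendritic epidermal T cells, a γδ T cell population that arises in the fetal thymus and spreads along the basal KCs. Their antigen receptor reaches the surface with the CD3 chains (CD3γ, CD3δ, CD3ε and the ζ chain encoded by Cd247) and signals through the kinases LCK and ZAP70 and the adaptor LAT. Such cells also carry receptors best known from NK cells, and the integrin CD103 (Itgae with Itgb7) holds them to E-cadherin on KCs. The T cell receptor genes themselves were not analysed here, so the γδ or αβ type of the 79 cells was not determined.

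Mouse 1 gave 48 T cells among 7607 kept cells, a share of 0.631% (95% exact Clopper-Pearson interval 0.466 to 0.836). Mouse 2 gave 31 among 11881, a share of 0.261% (interval 0.177 to 0.37). The mean share was 0.446% ± 0.262 (SD, n = 2 mice). The intervals of the 2 mice did not overlap, but they cover counting error only, and 2 mice of 1 group allow no test. A stricter limit of 5% mitochondrial UMIs, which left 35 and 27 T cells, moved the mean share to 0.895% ± 0.622.

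The T cells were somewhat shallower than the other kept cells. Their median depth was 8006 UMIs and 2687 genes per cell in mouse 1 and 7664 UMIs and 2396 genes in mouse 2, beside medians of 10480 and 10577 UMIs over all kept cells. Mitochondrial UMIs had a median of 4.39% and 4.2%. No barcode of a T cell occurred in the other library, although 127 barcodes were shared between the libraries as deposited. The doublet caller marked no T cell, but in mouse 1 it marked only 1 of 7607 cells (0.0131%) and so had not worked there, against 479 cells (4.03%) in mouse 2.

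The 3 chosen CD3 genes lie within 1 stretch of chromosome 9 (mm10), Cd3g at chr9:44969572-44980431 on the minus strand, Cd3d at chr9:44981786-44987339 on the plus strand and Cd3e at chr9:44998740-45009627 on the minus strand. Cd3g and Cd3d are neighbours read away from each other, so that their promoters lie between them. The 250 bases before the starts of Cd3g and Cd3d are shown because these genes chose the cells and because, as described below, Cd3g was present without Cd3d in some of them. Capitals mark the ETS core AGGAAG or its reverse complement CTTCCT, and no match to the RUNX core TGTGGT or ACCACA was found in either. Sequences are from RefSeq (GRCm38.p6) and are written 5′ to 3′ on each gene's own strand, from chr9:44980432-44980681 for Cd3g and chr9:44981536-44981785 for Cd3d.
Cd3g: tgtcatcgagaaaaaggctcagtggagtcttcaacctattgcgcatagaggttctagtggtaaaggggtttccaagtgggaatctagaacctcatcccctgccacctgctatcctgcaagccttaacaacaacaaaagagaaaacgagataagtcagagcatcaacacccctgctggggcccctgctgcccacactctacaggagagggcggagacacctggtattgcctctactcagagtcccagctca
Cd3d: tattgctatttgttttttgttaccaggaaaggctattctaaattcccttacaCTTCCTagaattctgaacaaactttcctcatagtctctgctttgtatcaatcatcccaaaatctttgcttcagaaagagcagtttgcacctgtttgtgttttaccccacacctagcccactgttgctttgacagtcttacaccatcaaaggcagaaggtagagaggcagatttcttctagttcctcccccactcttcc
Cd3g had 0 matches and Cd3d 1 match to the ETS core, and the RefSeq window of Cd3e, not printed because it overlaps the mm10 gene given above, had 2 matches. The ETS core occurred in 29.5% of 32851 mouse promoters of this length. The RUNX core occurred in 14% of them. These are letter matches in a window and say nothing of binding.

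CD3 UMIs chose the cells, and their values are therefore a description. Each T cell held between 14 and 180 UMIs of the 3 genes, with medians of 54 in mouse 1 and 59 in mouse 2, far inside the limit of 3. Just outside it, 4 kept cells of mouse 1 and 8 of mouse 2 with few Krt14 and Krt5 UMIs held 1 CD3 UMI, and none held 2. On the keratin side the highest T cell had 14 UMIs of Krt14 and Krt5, and the next kept cell with at least 3 CD3 UMIs had 29. The 12 kept cells with 3 or more CD3 UMIs and more than 20 keratin UMIs (4 in mouse 1, 8 in mouse 2) were left out.

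**Figure D1:**
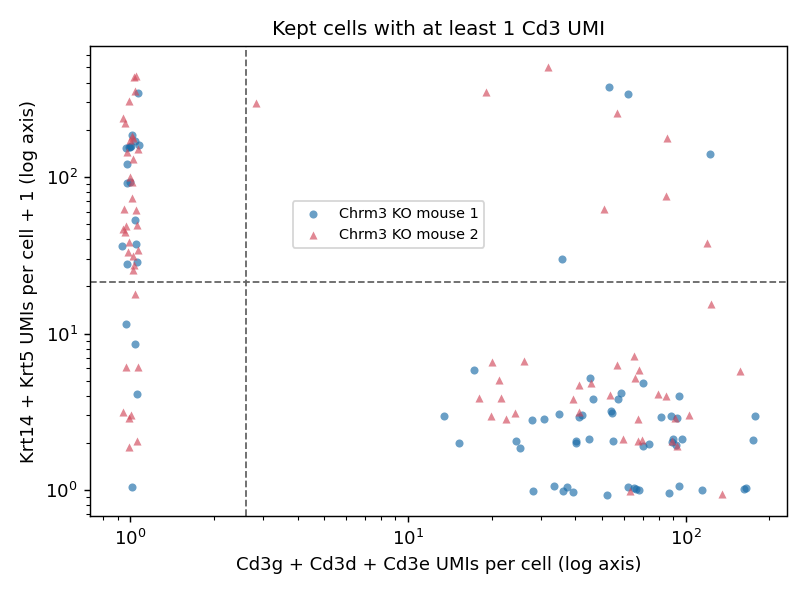
Kept cells with at least 1 CD3 UMI, by the sum of Cd3g, Cd3d and Cd3e UMIs (x, log axis) and the sum of Krt14 and Krt5 UMIs plus 1 (y, log axis), with a small random shift so that cells at the same counts show, and the limits of 3 and 20 as dashed lines. Circles are cells of mouse 1 and triangles cells of mouse 2. The 79 T cells at lower right hold 14 to 180 CD3 UMIs and stand apart from cells with 1 CD3 UMI and from the 12 CD3-positive cells rich in keratins.

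For comparison, UMIs were summed per mouse over the T cells (449242 and 282285 UMIs), over 288 Langerhans cell-like cells, over 987 melanocyte-like cells and over 7295 basal KC-like cells, each chosen by its own markers. Langerhans cells are the resident antigen-presenting cells of the epidermis, and the cells chosen here were rich in C1qa, C1qb, C1qc and Csf1r but had next to no Cd207, the langerin gene that marks mature Langerhans cells (3.94 CPM in mouse 1 and 0 in mouse 2, where CPM is the number of UMIs per 1000000 UMIs of the summed cells). Of these, 1 cell of mouse 2 was in both the Langerhans cell-like and the melanocyte-like sums. A total of 7581 genes with at least 10 UMIs in both T cell sums or both Langerhans cell-like sums were tested. A gene low in Langerhans cell-like cells could enter only by being present in the T cells, so that counts of list members given below describe the list and do not support it. Genes used to choose cells were not tested.

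Against Langerhans cell-like cells, 1269 genes were higher in T cells (16.7% of those tested) and 1661 lower (21.9%), at an adjusted p under 0.05 in the quasi-likelihood test of edgeR. Against basal KC-like cells, 1506 genes were higher (19.9%) and 1480 lower (19.5%). Of the 1269 genes, 615 (48.5%) were also higher against basal KC-like cells, a comparison with the same T cell sums. Without the T cell sum of mouse 1 the counts fell to 778 and 946 against Langerhans cell-like cells and to 980 and 765 against basal KC-like cells. With no filter on low counts, 3042 genes were lower than in basal KC-like cells.

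Cd3g reached 4581 CPM in the T cells of mouse 1 and 4276 in those of mouse 2. Cd3d stood at 1761 and 1870 CPM and Cd3e at 719 and 673.1. None of the 3 had a single UMI in the Langerhans cell-like, melanocyte-like or basal KC-like sums, which their definition required. Cd247, the only CD3 chain gene that could be tested, stood at 97.9 and 88.6 CPM, was found in 41 of 79 T cells and was at 0 in Langerhans cell-like cells, at least 91.8-fold lower (edgeR adjusted p = 2.36e-05). Here and below, a fold against cells with no UMI sets them at 3 UMIs over both mice and is a lower bound.

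T cell receptor signalling genes were mostly higher than in either kind of cell. Of 28 genes, 17 were tested, and 15 were higher and 2 lower than in Langerhans cell-like cells, with a median log2 fold change of 8.04, or 6.17 with genes at 0 set at their bound, beside -0.08 over all genes. Against basal KC-like cells 16 of the 17 were higher (median 8.99, beside -0.06 over all genes) and Syk did not pass. Among all genes tested, 16.7% were higher and 21.9% lower in the first comparison, and 19.9% and 19.5% in the second. Thy1, a surface protein of mouse T cells, stood at 616.6 and 573.9 CPM and in 74 of 79 cells, at least 584-fold above Langerhans cell-like cells (edgeR adjusted p = 6.38e-08). Lck, the kinase that starts receptor signalling, stood at 160.3 and 180.7 CPM, at least 163.6-fold above (edgeR adjusted p = 3.75e-07). ZAP70, the kinase that LCK activates, and LAT, the adaptor that ZAP70 phosphorylates, were both present.
Zap70 stood at 102.4 and 102.7 CPM and was at 0 in Langerhans cell-like cells, while Lat stood at 333.9 and 258.6 CPM against 0 and 0.606 there. The members lower than in Langerhans cell-like cells were Syk, the sister kinase of ZAP70, at 2.23 and 3.54 CPM against 33.8 and 32.1, and the adaptor gene Fyb at 162.5 and 180.7 CPM against 252.7 and 235.9. Cd5, Cd6 and Ubash3a, which restrain T cell receptor signals, had no UMI in the T cells, where counts of 0 allow up to 6.68 CPM in mouse 1 and 10.6 in mouse 2 (counting error only). Themis, needed for αβ thymocyte selection, had 14 UMIs in 12 cells.

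Coreceptors were nearly absent. Cd4 had no UMI in either mouse. Cd8a had 5 UMIs in mouse 1 and 1 in mouse 2, and Cd8b1 had 2 UMIs, both in 1 cell. None of the 3 passed the filter on low counts. With no filter Cd8a, which had no UMI in either other kind of cells, was called higher against both, on these 6 UMIs in 5 cells.

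Some genes of NK receptors and of cytotoxic granules were abundant, while others had few UMIs or none. Of the 25 list genes, 13 were tested. Against Langerhans cell-like cells 10 were higher and 2 lower, beside 16.7% and 21.9% of all genes tested, and Klrb1b did not pass. The median log2 fold change was 5.97, or 5.9 with genes at their bound. All 13 were higher than in basal KC-like cells (median 12.31, or 11.36 at the bound), beside 19.9% of all genes tested. Nkg7, a granule membrane protein of NK and T cells, was found in all 79 T cells at 1701 and 1498 CPM and had no UMI in Langerhans cell-like cells, at least 1579-fold lower (edgeR adjusted p = 2.23e-08). Ctsw, a lysosomal protease of cytotoxic lymphocytes, was likewise in all 79 cells, at 1356 and 1371 CPM, against 0 and 0.606 (1 UMI in all). Klrd1, which encodes CD94, stood at 282.7 and 322.4 CPM against 7.08 and 3.64, with a fitted log2 fold change of 5.62 ± 0.276 (SE, edgeR adjusted p = 2.92e-07).
Cd160, an Ig-family receptor, stood at 298.3 and 308.2 CPM in 59 cells, and the CD7 gene at 153.6 and 226.7 CPM in 51 cells, both with no UMI in Langerhans cell-like cells. Klrk1, the gene of NKG2D, which binds stress ligands on KCs, had 124.7 and 74.4 CPM but was found in only 33 cells. Its adaptor gene Hcst (DAP10) stood at 374 and 581 CPM against 26.8 and 46.7, with a fitted log2 fold change of 3.38 ± 0.303 (edgeR adjusted p = 1.62e-05).
The adaptors Fcer1g and Tyrobp were abundant in T cells and in Langerhans cell-like cells. Fcer1g stood at 1892 and 1725 CPM and in 78 of 79 T cells, against 2375 and 2712 (log2 fold change -0.74 ± 0.197, edgeR adjusted p = 0.0124). This call was lost without the T cell sum of mouse 1 (edgeR adjusted p = 0.0705) or mouse 2 (0.0604) and without the Langerhans cell-like sum of mouse 2 (0.101). Tyrobp stood at 594.3 and 733.3 CPM against 4576 and 5243 (log2 fold change -3.14 ± 0.405, edgeR adjusted p = 0.000125). Transcripts of the killing machinery itself were few. Prf1 (perforin), Gzmk, Fasl, Klrg1 and Ncr1 had no UMI, Gzmb had 1 UMI, Gzma had 45 UMIs in 12 cells, and Gzmc had 33 UMIs in 18 cells, 24 of them in mouse 2.

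**Figure D2:**
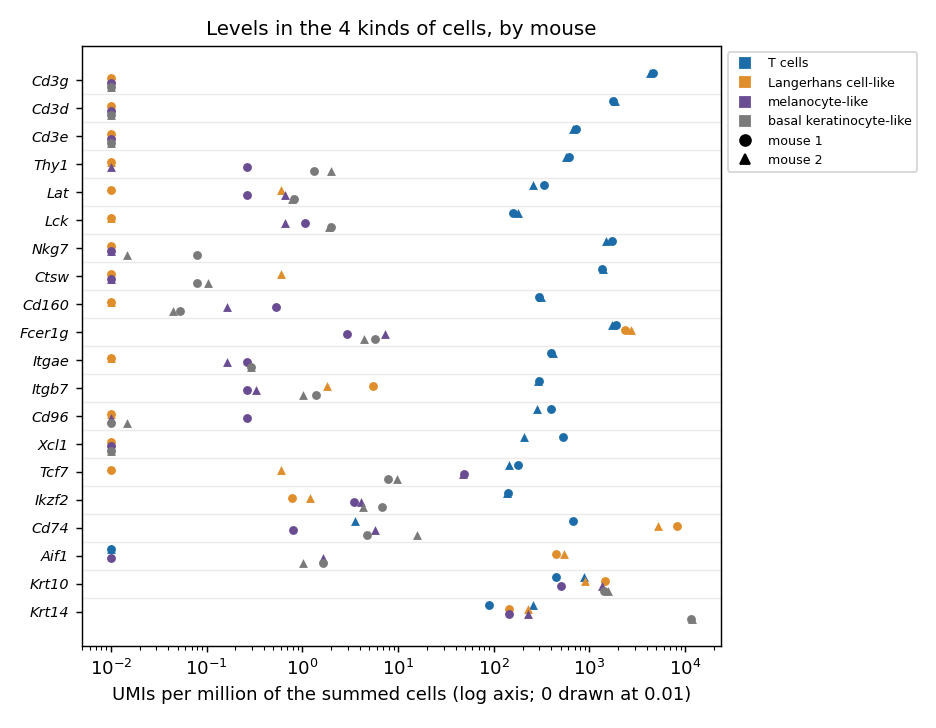
Levels of 20 genes in CPM (x, log axis, 0 drawn at 0.01) in the T cells (blue), Langerhans cell-like (orange), melanocyte-like (purple) and basal KC-like cells (grey), with circles for mouse 1 and triangles for mouse 2. In the T cells the mice differ most in Cd74 (676.7 and 3.54 CPM), Krt14 (89 and 255.1 CPM), Xcl1 (527.6 and 209 CPM) and Krt10 (449.6 and 878.5 CPM), and Fcer1g is near its T cell level in Langerhans cell-like cells.

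Adhesion and homing genes included both chains of CD103. Of 25 genes, 15 were tested, with 8 higher and 3 lower than in Langerhans cell-like cells (median log2 fold change 1.26) and 13 higher and 2 lower than in basal KC-like cells (median 8.08). Of all genes tested, 16.7% were higher and 21.9% lower in the first comparison, near the share of the list that was lower, and 19.9% and 19.5% in the second. Itgae stood at 396.2 and 414.5 CPM in 73 of 79 cells, at least 392.5-fold above Langerhans cell-like cells (edgeR adjusted p = 2.27e-08), and Itgb7 at 298.3 and 286.9 CPM in 70 cells (log2 fold change 6.17 ± 0.308, edgeR adjusted p = 1.24e-07). Amica1 (JAML), an adhesion molecule that binds CAR on KCs, stood at 146.9 and 138.2 CPM against 2.36 and 2.43. Cd96, a receptor for nectin-like proteins, stood at 400.7 and 283.4 CPM with no UMI in Langerhans cell-like cells.
Lower than in both other kinds of cells were Itgb1, the β1 integrin (77.9 CPM in each mouse, against 158.2 and 184.9 in Langerhans cell-like and 226.4 and 235.1 in basal KC-like cells), and the hyaluronan receptor gene Cd44. Chemokine receptors known from skin T cells were low, with no Ccr6 UMI, 1 of Ccr4, 3 of Ccr8 and 3 of Ccr10, the latter 2 found in mouse 2 alone. Cxcr6, of tissue-resident T cells, had 15 UMIs in 12 cells (24.5 and 14.2 CPM) and did not pass the filter on low counts, but with no filter it was called higher against both kinds of cells. Ccr7, which guides circulating T cells into lymph nodes, had 5 UMIs in all 79 cells. Klf2, a factor of circulating T cells, stood at 77.9 and 134.6 CPM and was higher than in Langerhans cell-like cells (log2 fold change 2.68 ± 0.396).

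Transcription factors of the T and innate lymphoid lineages were measured next. Of 24 genes, 15 were tested, with 10 higher and 3 lower than in Langerhans cell-like cells (median log2 fold change 1.62) and 9 higher and 3 lower than in basal KC-like cells (median 2.24). Of all genes tested, 16.7% were higher and 21.9% lower in the first comparison and 19.9% and 19.5% in the second, so that the share lower was near that of all genes in both. The 3 lower than in basal KC-like cells became 1 under 5% mitochondrial UMIs, 5 without the Langerhans cell-like sum of mouse 1 and 8 of 24 with no filter. Runx3, required for dendritic epidermal T cells, stood at 311.6 and 329.5 CPM, with a log2 fold change of 0.76 ± 0.175 over Langerhans cell-like cells (edgeR adjusted p = 0.00571), which express it too (169.2 and 151 CPM). Tcf7 (TCF1) stood at 180.3 and 145.2 CPM against 0 and 0.606. Ets1 (133.6 and 163 CPM), Ikzf2 (Helios, 142.5 and 138.2 CPM) and Tox (84.6 and 85 CPM) were likewise higher against both kinds of cells.
Most factors that direct specialized T cell subsets were close to 0. Foxp3, of regulatory T cells, had no UMI, Tbx21 had 1 and Zbtb16 had 4. Gata3 stood at 49 and 42.5 CPM, above Langerhans cell-like cells (log2 fold change 2.58 ± 0.511, with an edgeR adjusted p of 0.0548 without the T cell sum of mouse 1) and below basal KC-like cells (-1.84 ± 0.293), whose own level was 171.2 and 141.1 CPM. Zeb2, present in Langerhans cell-like cells at 203.1 and 195.9 CPM, had no UMI in the T cells.

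Few cytokines were detected. Of 23 genes, 7 were tested. Xcl1 and Ltb were higher and Ccl3, Ccl4 and Tgfb1 lower than in Langerhans cell-like cells, beside 16.7% and 21.9% of all genes. Tnf and Igf1 did not pass, and the median log2 fold change was -0.95. Of the 7, 4 were higher and none lower than in basal KC-like cells, beside 19.9% higher and 19.5% lower of all genes. Xcl1, a chemokine that attracts cross-presenting dendritic cells, stood at 527.6 CPM in mouse 1 and 209 in mouse 2, in 40 of 79 cells, and 93 of its 296 UMIs (31.4%) lay in 1 cell. By DESeq2 its adjusted p was 0.0502. Ltb (lymphotoxin β) stood at 182.5 and 230.3 CPM in 51 cells, against 15 and 9.7 in Langerhans cell-like cells.
Il13, a type 2 cytokine, had 20 UMIs spread over 19 cells of both mice. Ifng had 6 UMIs in 4 cells. No UMI was found of Il17a, Il17f, Il22, Il4, Csf2, Areg, Fgf7, Fgf10 or Igf1, the last 3 being growth factors through which adult epidermal T cells act on KCs.
Of 19 cytokine receptor genes, 12 were tested, with 5 higher and 6 lower than in Langerhans cell-like cells (median log2 fold change -2.14) and 8 higher and none lower than in basal KC-like cells, beside 16.7% higher and 21.9% lower of all genes in the first comparison and 19.9% and 19.5% in the second. The count of 8 was 4 without the T cell sum of mouse 1, where Il7r, Il21r (2 UMIs in the T cells), Il4ra and Tgfbr2 did not pass. Il2rg, the common γ chain, stood at 169.2 and 145.2 CPM, Il2rb, the IL-2 and IL-15 receptor β chain, at 77.9 and 39 CPM, and Tnfrsf9 (4-1BB) at 89 and 99.2 CPM. Both TGF-β receptor chains were measured, with Tgfbr2 at 91.3 and 63.8 CPM (log2 fold change 1.76 ± 0.307 over Langerhans cell-like cells, with an edgeR adjusted p of 0.0522 without the T cell sum of mouse 1) and Tgfbr1 at 40.1 and 24.8 CPM against 275.5 and 363.2 (-3.49 ± 0.262).

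The study's question concerns acetylcholine, so the receptor and enzyme genes of that system were read in the T cells as well. Chrm3 had no UMI in the T cells of either mouse (up to 6.68 and 10.6 CPM allowed), and in the basal KC-like cells 3 and 10 UMIs were counted (0.0801 and 0.147 CPM), a level that the T cell depth could not have shown. Without WT cells and without knowing whether the 3′ tags lie in the deleted part, these counts do not check the genotype. Chrm1, Chrm2, Chrm4, Chrm5 and Chat, the gene of the enzyme that makes acetylcholine, also had no UMI. Of the 20 cholinergic genes, Chrna9 and Chrnb1 had 1 UMI each and 18 had none.

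Several genes outside the lists were among the 20 that exceeded Langerhans cell-like cells most. Ctla2a, an inhibitor of cysteine proteases, stood at 1182 and 1201 CPM in 87.3% of the T cells, and Ptprcap, a partner of CD45, at 721.2 and 630.6 CPM in 96.2%. Cd163l1, a scavenger receptor known from γδ T cells, stood at 215.9 and 191.3 CPM in 67.1% of cells and had no UMI in either the Langerhans cell-like or the basal KC-like sums (at least 200.9-fold and 7248-fold above). Klra5, the gene of the inhibitory receptor Ly49E, stood at 93.5 and 124 CPM in 35.4%.
The same 20 included genes better known from other tissues. Tnni1, which encodes the troponin I of slow muscle, stood at 209.2 and 230.3 CPM in 65.8% of T cells. Ace, the angiotensin-converting enzyme gene, stood at 144.7 and 163 CPM in 54.4%, Nrgn, a calmodulin-binding protein gene of neurons, at 122.4 and 134.6 CPM in 45.6%, and Avil, an actin-binding protein gene, at 131.3 and 70.9 CPM in 39.2%. All 4 had no UMI in Langerhans cell-like cells. Skap1, Sytl3 and Dapk2 completed the 20 together with the list genes above. Among the 10 largest rises over basal KC-like cells, Ctla2b (124.7 and 116.9 CPM) and Cd2 (276 and 194.8 CPM), a receptor of CD48, were added to genes already named.

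The 8 genes that lay furthest below Langerhans cell-like cells were all at 0 in the T cells. They were Tgfbi, Ms4a6c, Aif1, Lyz2, Trem2, Clec4a2, Zmynd15 and Zeb2, mostly genes of myeloid cells. Tgfbi, an extracellular matrix protein gene, was at least 149.7-fold lower (edgeR adjusted p = 7.21e-08) and Lyz2, the lysozyme of macrophages, at least 112.4-fold lower (edgeR adjusted p = 0.000119).

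Immediate early and stress genes did not move as 1 group against Langerhans cell-like cells. Of 20 genes, 15 were tested, with 7 lower (Fos, Jun, Egr1, Ier2, Dusp1, Zfp36 and Btg2), 2 higher (Nr4a2 and Nfkbia) and 6 not passing (median log2 fold change -0.59), beside 21.9% of all genes lower and 16.7% higher. Against basal KC-like cells 5 were higher and 4 lower, beside 19.9% and 19.5% of all genes tested. With no filter, 7 of 20 were higher and 7 lower. Jun, a subunit of the transcription factor AP-1, stood at 111.3 and 187.8 CPM against 715.4 and 544.5 in Langerhans cell-like cells (log2 fold change -2.36 ± 0.237, edgeR adjusted p = 2.03e-05) and against 1843 and 1339 in basal KC-like cells. Junb, by contrast, stood at 825.8 and 616.4 CPM, in 78 of 79 T cells, and did not pass the test against Langerhans cell-like cells (0.18 ± 0.256). These counts rested on single sums. Against Langerhans cell-like cells, 3 genes were lower and none higher without the T cell sum of mouse 1, 4 lower and 1 higher without that of mouse 2, and 4 lower without the Langerhans cell-like sum of mouse 1. Neither higher call held without the Langerhans cell-like sum of mouse 2 or under 5% mitochondrial UMIs. Without the T cell sum of mouse 1, 2 were higher than in basal KC-like cells.

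Cell cycle genes were raised against Langerhans cell-like cells. Of 16 DNA replication genes, 15 were tested and 14 were higher (median log2 fold change 2.22). Of 18 mitosis genes, 17 were tested and 15 were higher (median 1.68), with none lower in either list. This compares with 16.7% of all genes tested higher and 21.9% lower. Mki67, the proliferation marker gene, stood at 360.6 and 368.4 CPM against 70.8 and 62.5 (log2 fold change 2.21 ± 0.185, edgeR adjusted p = 5.01e-06), and Mcm7, of the replicative helicase, at 118 and 109.8 CPM against 6.3 and 10.9 (3.44 ± 0.259, edgeR adjusted p = 2.40e-06). Against basal KC-like cells, which divide as well, 5 of the 15 replication genes and 11 of the 17 mitosis genes were higher, beside 19.9% of all genes tested. The mitosis count was 9 without the cell rich in Cd74 described below, 4 under 5% mitochondrial UMIs and 3 without the T cell sum of mouse 1, where 1 mitosis gene was lower. The replication count was 3 under 5% mitochondrial UMIs and 1 (Dut) without the T cell sum of mouse 1. Against Langerhans cell-like cells, 9 mitosis genes were higher without that sum.
Single T cells fell into 2 ranges of mitosis UMIs, with a limit of 20 UMIs chosen after seeing them. Of the 79 T cells, 55 held 0 to 9 UMIs of the mitosis list, none held 10 to 19, and 24 held at least 20, namely 17 of 48 in mouse 1 (35.4%, interval 22.2 to 50.5) and 7 of 31 in mouse 2 (22.6%, interval 9.59 to 41.1). The corresponding shares were 4.8% and 6.13% of Langerhans cell-like cells and 18.3% and 20.2% of basal KC-like cells. At the lower limit of 3 UMIs the share was 64.6% and 54.8% of T cells, and when each cell was thinned to 2000 UMIs it was 35.4% and 25.8%, against 7.2% and 6.75% of Langerhans cell-like and 17.8% and 19.5% of basal KC-like cells. At least 20 replication UMIs were held by 18 T cells, 13 of which were among the 24. The 18 made up 25% of T cells in mouse 1 and 19.4% in mouse 2. The basal KC-like shares were 22.7% and 27.1%, and the Langerhans cell-like shares 2.4% and 2.45%. At 3 replication UMIs the shares were 70.8% and 71% of T cells against 77.6% and 81.2% of basal KC-like cells. After thinning to 2000 UMIs these were 47.9% and 29% against 24.1% and 28.8%. Cells with at least 20 mitosis UMIs were deeper, with median depths of 12956 UMIs in mouse 1 and 11671 in mouse 2 against 6637 and 7240 in the others.

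**Figure D3:**
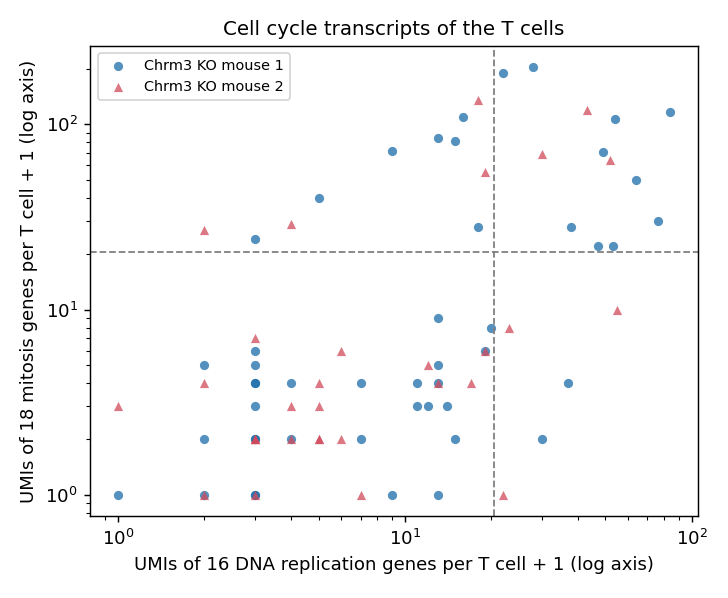
UMIs of 16 DNA replication genes (x) and of 18 mitosis genes (y) in each T cell, both plus 1 on log axes, with dashed lines just below 20 UMIs. Circles are the 48 cells of mouse 1 and triangles the 31 of mouse 2. A band without cells between 10 and 19 mitosis UMIs separates 24 cells above from 55 below, and 13 of the 24 also hold at least 20 replication UMIs.

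The T cells were not uniform in the CD3 genes themselves. A group of 11 cells, 6 of mouse 1 and 5 of mouse 2, held Cd3g but not a single UMI of Cd3d or Cd3e. Their Cd3g counts were 14 to 66 UMIs per cell, with a median of 41, beside a median of 35 in the other 68 cells. In those 68, Cd3d ranged from 2 to 39 UMIs with a median of 19.5, and Cd3e was found in 65. The 11 cells were thus inside the rule by Cd3g alone, and as Cd3d and Cd3e belong to the rule and the split was seen in the data, what follows is a description without a test.
The 11 cells shared many detected genes with the others. Thy1, Nkg7, Ctsw, Fcer1g, Tyrobp and Ptprcap were found in all 11, Itgae and Itgb7 in 10, and Lat in 8. Fcer1g stood at 1566 CPM against 1859 in the other 68, and Tyrobp at 1078 against 596.7. Nkg7 was lower in both mice (999.6 and 807.5 CPM against 1773 and 1599), as was Ctla2a (526.1 against 1268 CPM over both). Lower values were also seen for Cd247 (3 UMIs, 38.5 CPM, against 101), Lck (5 UMIs, 64.2 against 180.5) and Zap70 (2 UMIs, 25.7 against 111.7). They were lower in both mice, but on 1 to 3 UMIs of each gene per mouse, so a difference within each mouse is not shown.
Further genes also differed between the 11 cells and the rest, and those given here were chosen after their values were seen. Ifitm2, an interferon-induced membrane protein gene, was in all 11 cells at 2387 CPM (2785 in mouse 1, 1921 in mouse 2) and in 38 of the other 68 at 474.3 CPM (442 and 527.7). Klrk1 was in 10 of 11 cells at 410.6 CPM and in 23 of 68 at 68.8. Cela1, an elastase gene, had 1 UMI in the 11 cells against 128 in 49 of the 68.
Ikzf2, the Helios gene, likewise had 1 UMI against 102 in 42 cells. Il18r1, the IL-18 receptor gene, stood at 282.3 CPM against 49, Id2, a transcriptional regulator that innate lymphoid cells depend on, at 590.3 against 234.1, and Tox at 179.6 against 73.4, each in the same direction in both mice. Of the NK and innate lymphoid genes, the 11 cells had no UMI of Ncr1 or Il1rl1 and 1 each of Eomes and Klrb1c, where a count of 0 allows up to 38.5 CPM. Genes of the NK and granule list went both ways. The NK receptor gene Klrb1b (12 UMIs, 154 CPM against 50.5) was higher in both mice. Klrb1f (5 UMIs, 64.2 against 13.8) rested on 1 UMI in mouse 2. Gzmc (154 against 32.1) rested on 2 UMIs in mouse 1, and 8 of its 12 UMIs lay in 1 cell. Klrd1 was lower in both mice (238 and 278.4 CPM against 287.3 and 328.8), and Gzma had 1 UMI (12.8 CPM against 67.3). Little apart were Hcst (410.6 against 459), Cd7 (166.8 against 183.6) and Il2rb (64.2 against 62.7). Klrc1 had 3 UMIs, all in mouse 2 (38.5 against 9.18 CPM). These cells are called T cells here by the rule only, and whether they are T cells or innate lymphoid cells was not tested. At least 20 mitosis UMIs were held by 4 of the 11 cells, 1 in mouse 1 and 3 in mouse 2, beside 20 of the other 68. Mki67 stood at 333.2 CPM against 363.4 in mouse 1 and at 1671 against 178.6 in mouse 2. Leaving the 11 cells out gave a mean share of T cells of 0.385% and 1170 genes higher and 1565 lower than in Langerhans cell-like cells. It also reduced the mitosis genes higher than in basal KC-like cells from 11 to 5.

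**Figure D4:**
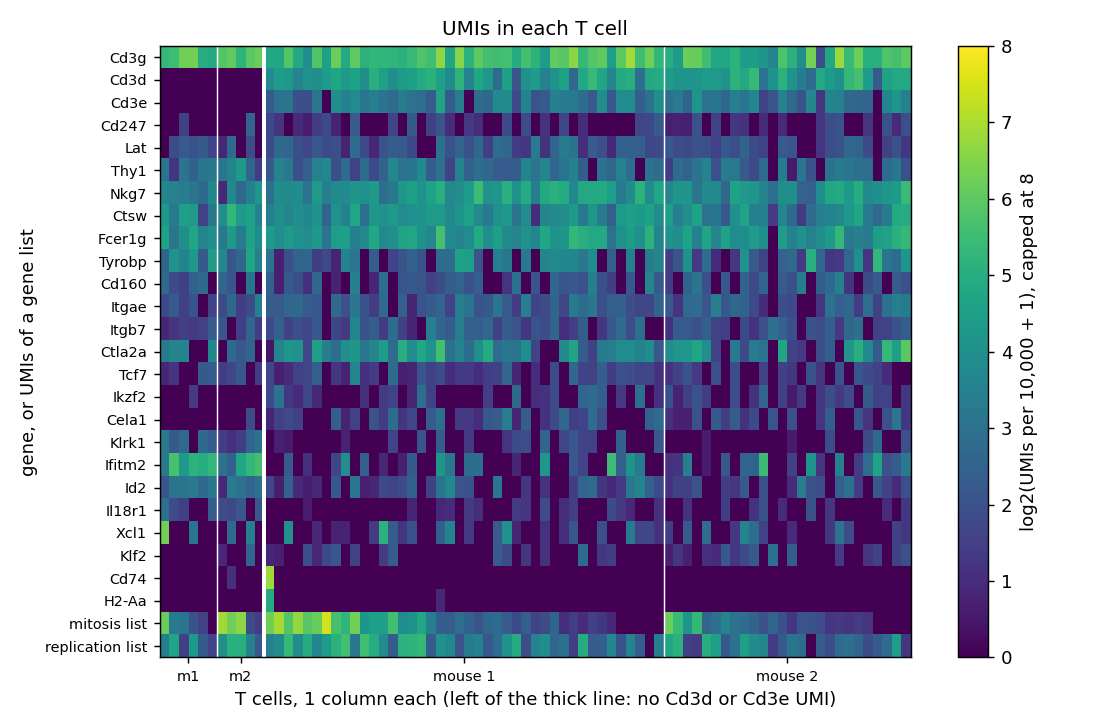
UMIs of 25 genes and 2 gene lists in each of the 79 T cells (columns), as log2 of UMIs per 10000 plus 1, with the 11 cells that lack Cd3d and Cd3e left of the thick line and thin lines between mouse 1 and mouse 2. Within each block, cells are ordered by mitosis UMIs. The 11 cells are dark for Cd3d, Cd3e, Ikzf2 and Cela1 and bright for Ifitm2 and Klrk1, and Cd74 is bright in a single cell of mouse 1.

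A different single cell of mouse 2 stood apart as well. It was the only T cell with no Fcer1g, and it also had no UMI of Tyrobp, Cd160, Itgae, Thy1 or Tcf7, while it held 10 UMIs of Cd3d, 2 of Cd3e, both Cd8b1 UMIs, 3 UMIs of S1pr1 and 4 of Klf2. S1pr1 and Klf2 belong to T cells that circulate. It was chosen for description after its values were seen.

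Markers of other cells of the epidermis were read in the T cell sums. Of 13 Langerhans cell genes, 570 UMIs (1269 CPM) were counted in mouse 1 and 30 (106.3 CPM) in mouse 2, beside 23444 and 19980 CPM in the Langerhans cell-like cells. The most abundant, Cd74, the invariant chain of MHC class II, had 305 UMIs, of which 304 lay in 1 cell of mouse 1. That cell had the most UMIs of all T cells (26401), with 116 CD3 UMIs, 202 mitosis UMIs, 76 UMIs of H2-Aa and no UMI of Krt14 or Krt5. Cd207, C1qc, Csf1r, Lyz2 and Aif1 were at 0 in the T cells. Against basal KC-like cells 6 of 8 tested Langerhans genes were higher, beside 19.9% of all genes tested. Without the T cell sum of mouse 1 only Mfge8 was higher, and without this single cell only Ctss and Mfge8 were. Without this cell the counts of all genes higher in T cells were 1274 against Langerhans cell-like and 1478 against basal KC-like cells.
KC transcripts were found throughout. Krt10, of suprabasal KCs, was in 78 of 79 T cells at 449.6 and 878.5 CPM, against 1446 and 890.2 in Langerhans cell-like cells and 1431 and 1574 in basal KC-like cells. All 6 suprabasal genes tested missed the threshold between T cells and Langerhans cell-like cells, while 21.9% of all genes tested were lower. However, 4 were lower in T cells with no filter, 1 under 5% mitochondrial UMIs and 1 without the T cell sum of mouse 2. The summed suprabasal list stood at 943.8 CPM in mouse 1 and 2069 in mouse 2, so that the T cells of mouse 2 held more of it. The 5 basal KC genes summed to 218.1 and 496 CPM, led by Krt14 with 112 UMIs, and the 7 follicle and sebaceous genes to 97.9 and 166.5 CPM, led by Krt17 with 54 UMIs. In the other direction, T cell genes were rare in basal KC-like cells, whose median depth was 11306 and 11615 UMIs. These cells were chosen to hold no CD3 UMI, so that KCs carrying CD3 transcripts had been left out beforehand. A UMI of Nkg7 was found in 0.0548% of them, of Itgae in 0.384% and of Lck in 2.66%, against 100%, 92.4% and 73.4% of T cells. The part of free RNA in the low counts of any gene was not tested.
Melanocyte, Merkel, dermal, mast, B, red blood and endothelial cell markers were near 0. The 6 melanocyte genes had 5 UMIs in all, the 5 Merkel cell genes 1, the 5 dermal genes 7, all of Dcn, and the 10 mast, B cell and neutrophil genes 2, both of Cd79b. The 7 blood and vessel genes had 3 UMIs, with none of hemoglobin. Of 6 genes of NK and other innate lymphoid cells, Klrb1c had 7 UMIs, Eomes 2 and the other 4 none.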

How the data were processed

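scRNA-seq of the epidermis of 2 Chrm3 KO mice was analysed, 1 library per mouse. The authors deposited UMI counts per gene and barcode, made with Cell Ranger 3.0.2 on mm10 (10816 and 15867 barcodes, 109756784 and 166441732 UMIs, 27998 genes). The labels name an earlier version of the 3′ chemistry than the published methods.

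Cells were selected by marker counts: Langerhans cell-like, at least 5 UMIs of C1qa, C1qb, C1qc, Csf1r and Cd207; melanocyte-like, at least 10 of Pmel, Dct and Tyrp1; basal KC-like, at least 100 of Krt14 and Krt5. All lacked CD3 UMIs, and the first 2 had at most 20 UMIs of Krt14 and Krt5. The 8 sums per mouse and kind entered 1 fit in edgeR 4.0.16 (R 4.3.3; TMM, quasi-likelihood F-test, Benjamini-Hochberg adjustment, 4 residual degrees of freedom). SEs were taken from the fold change and F. On simulated counts for the Langerhans comparison (7269 genes), 90% of 200 genes changed by 2 on the log2 scale were recovered, with 5 false calls. The changed genes were drawn from those with an expected count of at least 5 in the smallest sum. All kinds of cells otherwise shared 1 profile, so these figures do not carry over to genes with fewer UMIs. Doublets were scored with Scrublet (scanpy 1.11.5). UMI counts from 3′ tags do not scale with gene length. Gene positions are from GENCODE M21, which held 27645 identifiers.

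Sums of 1 mouse pair by animal, and their differences between mice barely correlated (-0.002 to 0.11 over 6 pairs of kinds). A low correlation does not show that the sums are unpaired, and a fit with a block for the mouse is given below. Genes named were those of the lists of T cell function and of other cell types, the 20 largest rises and 8 largest falls against Langerhans cell-like cells, the 10 largest rises against basal KC-like cells, called and in the same direction in both mice, and Chrm3. The cells, lists and rules were chosen with earlier results of these data known. Alternatives were a fit by DESeq2 1.42.0, other size factors, all genes unfiltered, a block for the mouse, different limits on cells and the removal of each sum. T cell receptor genes were not analysed here.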

Additional observations from a re-analysis of the deposited data

Results flagged for a closer look

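CD3 transcripts were also found in barcodes outside the T cells. Among barcodes removed by the limits on genes and mitochondrial UMIs, 3 of mouse 1 and 8 of mouse 2 held at least 3 CD3 UMIs and at most 20 UMIs of Krt14 and Krt5. Of these, 2 and 3 had under 900 genes and 1 and 5 had 10% or more mitochondrial UMIs. Among kept cells, 4 of mouse 1 and 8 of mouse 2 held at least 3 CD3 UMIs with more than 20 UMIs of Krt14 and Krt5, with median depths of 24890 and 17534 UMIs and median keratin counts of 247.5 and 223.5. The doublet caller marked none of the 4 and 1 of the 8.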

How the results depend on the processing

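Limits of 2 or 5 CD3 UMIs chose the same 79 cells, and limits of 10 or 50 keratin UMIs, of 500 genes and removal of called doublets left every count over all genes within 1.5 times. Counts over all genes moved further without the T cell sum of mouse 1, the larger T cell sum. With no filter, which tests more genes, only the total and the lower count against basal KC-like cells moved further. Some counts within lists also moved further under other alternatives. Leaving out 1 sum at a time gave 1724 to 2581 calls against Langerhans cell-like cells (778 to 1151 higher, 946 to 1464 lower) and 1745 to 2848 against basal KC-like cells (980 to 1447 higher, 765 to 1404 lower). With no filter, cytokine genes called higher rose from 2 to 4 against Langerhans cell-like and from 4 to 7 against basal KC-like cells. It gave 5009 calls against basal KC-like cells, 3042 of them lower. Under 5% mitochondrial UMIs the mean share of T cells was 0.895%. The mean share with mitosis transcripts, 59.7% at 3 UMIs, was 41.2% at 5 UMIs, 29% at 20 UMIs (a limit chosen after seeing the data) and 30.6% after thinning.

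With the mouse as a replicate block, 2861 of 2930 calls against Langerhans cell-like cells and 2916 of 2986 against basal KC-like cells were kept, and no named call was lost (1314 higher and 1695 lower, and 1533 and 1547). DESeq2 lost the calls of Xcl1, Il2rb, H2-Aa and H2-Eb1 against Langerhans cell-like cells and of H2-Aa and Krt1 against basal KC-like cells. Of 4154 single gene values under alternatives, 147 lost their call, 57 of them without the T cell sum of mouse 1. Among single genes, 10 values reversed against basal KC-like cells. Without the Cd74-rich cell these were Cd74 (-2.97), H2-Aa (-0.85), H2-Ab1 (-1.85) and H2-Eb1 (-8.27). Without the T cell sum of mouse 1 they were the same genes, Il21r and Cenpf, and leaving out 1 sum at a time gave log2 fold changes from -1.63 to 6.19 for Cd74, from -8.36 to 6.84 for H2-Aa, from -9.36 to 5.17 for H2-Ab1, from -8.46 to 5.66 for H2-Eb1, from -1.84 to 7.27 for Il21r and from -0.07 to 1.11 for Cenpf. Causes were not tested.

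The 2 mice of 1 group limit every p to the spread between them, and 79 cells limit rare transcripts. The planned shares of cells with γδ and αβ receptor transcripts, and their alternatives, were not run.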
